A study of Mus musculus with 2 samples.

Results

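Iron handling and metallothionein genes were followed across the non-parenchymal cells of fibrotic mouse liver. The 8 genes, chosen by symbol among the 32285 genes of the deposited matrices, were the metallothioneins Mt1 and Mt2, the heme oxygenase gene Hmox1, the iron exporter Slc40a1 (ferroportin), the endosomal metal transporter Slc11a1 (Nramp1), the ferritin chains Fth1 and Ftl1, and the transferrin receptor Tfrc. They were picked with their levels by cell type and library already known, so those levels are given as a description and nothing is tested with them. Each had at least 3 UMIs in each of the 12 cell classes described, in both libraries.

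All animals had received intraperitoneal carbon tetrachloride (CCl4), which injures hepatocytes and scars the liver, over 8 weeks. One library was from Mfap2+/+ animals (called WT) and 1 from Mfap2-/- animals (called KO), where Mfap2 is the gene of a microfibril protein of the extracellular matrix. The droplet assay reads the 3′ ends of mRNAs and counts each captured molecule once by its molecular barcode (UMI). No mice without CCl4 were included, and age, sex, strain and the number of animals per library were not given in the sources used here. With 1 library per genotype there was no test between genotypes, and genotype, animal and library preparation cannot be told apart.

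Macrophages that engulf old red cells free iron from heme with heme oxygenase 1, store it in ferritin, a shell of heavy (Fth1) and light (Ftl1) chains, and release it to plasma through ferroportin. Most other cells take iron up from transferrin through the transferrin receptor. Metallothioneins are small cysteine-rich proteins that bind zinc and copper, and their genes are induced by metals, glucocorticoids and oxidative stress. Kupffer cells, the resident macrophages of the liver sinusoids, are known for iron recycling. Hepatic stellate cells store vitamin A and form scar matrix when activated.

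Several of these mRNAs carry iron-responsive elements, hairpins whose loop is bound by iron regulatory proteins when iron is scarce. Binding in a 5′ UTR blocks translation, and binding in the 3′ UTR of Tfrc stabilises the mRNA, so for the ferritins and ferroportin the RNA level need not follow the protein. The hairpins are shown because the members that store, export and take up iron share this element and the rule for choosing them did not use it. A search of GENCODE M21 transcripts on GRCm38 for a bulged C, 5 bases, the loop CAGTGN and 5 bases pairing with the first 5 (G with T allowed) found 1 site each in the 5′ UTRs of Fth1, Ftl1 and Slc40a1 and 4 sites in the 3′ UTR of Tfrc. Only the transcript strand was searched. Capitals mark the 6 loop bases.
Fth1 (chr19:9982732-9982760, forward strand): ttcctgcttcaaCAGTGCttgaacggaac
Ftl1 (chr7:45459779-45459807, reverse strand): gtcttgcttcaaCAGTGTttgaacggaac
Slc40a1 (chr1:45925465-45925493, reverse strand): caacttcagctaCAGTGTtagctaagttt
Tfrc (chr16:32631219-32631247, forward strand): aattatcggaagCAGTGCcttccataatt
Tfrc (chr16:32631598-32631626, forward strand): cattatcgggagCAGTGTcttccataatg
Tfrc (chr16:32631663-32631691, forward strand): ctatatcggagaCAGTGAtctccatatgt
Tfrc (chr16:32631710-32631738, forward strand): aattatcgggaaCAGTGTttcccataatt

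Of 21877 coding genes searched, 31 (0.142%) had a match in a 5′ UTR and 129 (0.59%) had one in a 3′ UTR. The metallothionein promoters are shown because Mt1 and Mt2 were high in the same classes. Capitals mark the core of the metal-response element, TGCGCNC or TGCACNC, on either strand, in the 250 bases before the RefSeq start on GRCm38.p6. Promoters of 6 of the 8 members were matched in that table, and those of Hmox1 and Slc40a1 were not used here.
Mt1 (chr8:94178839-94179088, forward strand): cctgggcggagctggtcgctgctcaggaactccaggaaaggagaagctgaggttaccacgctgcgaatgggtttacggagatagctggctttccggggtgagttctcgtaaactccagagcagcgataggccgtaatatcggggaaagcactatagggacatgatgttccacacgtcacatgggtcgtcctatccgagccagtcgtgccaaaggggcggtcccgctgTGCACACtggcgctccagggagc
Mt2 (chr8:94172368-94172617, forward strand): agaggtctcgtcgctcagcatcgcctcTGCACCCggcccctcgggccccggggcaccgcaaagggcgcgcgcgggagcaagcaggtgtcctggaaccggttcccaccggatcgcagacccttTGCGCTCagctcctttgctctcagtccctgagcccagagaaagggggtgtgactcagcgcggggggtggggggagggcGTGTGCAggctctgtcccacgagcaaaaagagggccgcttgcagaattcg

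The Mt1 window held 1 match and the Mt2 window 3, one of them on the reverse strand. At least 1 match occurred in 21.4% of 32851 promoter windows of this length, and 3 or more in 1.26%. GENCODE M21 also lists Mt1 transcripts that start further downstream, and the bases before those starts lie outside this window. The Mt2 window ends at 94172617 and the GENCODE M21 gene starts at 94172664, so the bases just before that start were not searched either. A match is a run of letters, not a shown site of binding.

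Cells were put in classes by marker genes: a cell needed a UMI from at least 4 of 6 markers of a class and a lead of at least 2 markers over any other. Kupffer cells were macrophage-gated cells with Clec4f and with Vsig4, Timd4 or Folr2, and other macrophages had no UMI of Clec4f, Timd4 or Vsig4. The remaining macrophage-gated cells are called intermediate. Kupffer cells numbered 547 (WT) and 478 (KO), other macrophages 720 and 818, and stellate cells 139 and 124, of 10336 and 11428 cells kept. The gate itself asked for these markers, so their number per cell describes the classes and does not check them. Kupffer cells had a median of 6 of the 6 macrophage markers, and stellate cells a median of 6 of the 6 stellate markers with 3 of the 6 macrophage markers. C1qa, a macrophage complement gene, stood at 3883 CPM (UMIs scaled to a class total of 1000000) in WT Kupffer cells. It was 245 CPM in WT stellate cells and 245 CPM in WT B cells, so stellate cells carried C1qa RNA at the B-cell level. This does not hold for every macrophage marker: Mertk stood at 104 CPM in WT stellate cells and 33.2 CPM in WT B cells. Clec4f stood at 12.1 CPM in WT and 15.5 CPM in KO B cells, so a single Clec4f UMI may be stray. How many gated Kupffer cells rest on stray UMIs was not tested.

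The WT library held 11783 barcodes and 82499307 UMIs and the KO library 12872 and 118226367. Mfap2 had 211 UMIs over the WT cells kept and 2 over the KO cells. Median UMIs per cell were 12209 (WT) and 14880.5 (KO) in Kupffer cells, 9124.5 and 11338 in other macrophages, 12614 and 12269.5 in stellate cells, and 3586 and 4897.5 in B cells. The libraries shared 40 cell barcodes. Over the 12 classes with at least 50 cells in both libraries, hepatocyte RNA (8 genes) was higher in KO in 11, dissociation and heat stress RNA (8 genes) was higher in 12, and red cell RNA (5 genes) and neutrophil RNA (3 genes) were each lower in 11. Ribosomal protein genes, added to these after their values were seen, took a smaller share of UMIs in KO in 12 of 12. The intervals given below are 95% intervals that cover counting error only.

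Hmox1 (ENSMUSG00000005413, chr8:75093621-75100589 on GRCm38, forward strand), whose product opens the heme ring to free iron, was highest in Kupffer cells in both libraries. It stood at 1346 CPM (1318 to 1374) in WT and 1364 CPM (1338 to 1392) in KO. Other macrophages had 606 CPM (587 to 625) and 799 CPM (781 to 817). Intermediate macrophages, defined above, had 695 CPM (674 to 716) and 767 CPM (750 to 785). They lay above other macrophages in WT and below them in KO, where the intervals overlapped. After the macrophages came patrolling monocytes at 300 CPM (272 to 329) and 341 CPM (317 to 367). Stellate and endothelial cells had 191 and 187 CPM in WT, with overlapping intervals, and 194 and 238 CPM in KO, where the intervals did not overlap. Lymphocytes and type 1 dendritic cells (cDC1) lay between 47.4 and 64.2 CPM.

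Kupffer cells thus held 2.22-fold more Hmox1 than other macrophages in WT (log2 1.15, 1.10 to 1.21) and 1.71-fold more in KO (log2 0.77, 0.73 to 0.82). The ratio passed 2-fold in WT only, and the difference between the libraries in this ratio was not tested. Over all 12 alternative ways of processing the log2 ratio lay between 1.13 and 1.47 in WT and between 0.58 and 0.997 in KO. Nearly all Kupffer cells had a UMI, 94.9% in WT and 93.7% in KO, against 20.2% and 24.7% of B cells. At 1000 UMIs per cell the shares were 53.5% and 56.8% of Kupffer cells and 5.69% and 5.99% of B cells. Thinning left out 3 of 547 WT and 1 of 478 KO Kupffer cells, and kept 706 and 811 other macrophages, 136 and 122 stellate cells, and 738 and 1252 B cells.

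Slc40a1 (ENSMUSG00000025993, chr1:45908068-45926523, reverse strand), which encodes ferroportin, the only known iron exporter of vertebrate cells, was also highest in Kupffer cells in both libraries. Kupffer cells had 580.0 CPM (562 to 599) in WT and 572 CPM (555 to 590) in KO. Other macrophages had 189 CPM (179 to 200) and 148 CPM (140 to 156), and intermediate macrophages 228 and 212 CPM. Endothelial cells and neutrophils followed at 103 CPM each in WT and 87.8 and 84.1 CPM in KO, with overlapping intervals. Stellate cells had 72.7 and 64.2 CPM. The monocyte, lymphocyte and cDC1 classes lay between 13.5 and 24.2 CPM.

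The Kupffer to other macrophage ratio of Slc40a1 was 3.06-fold in WT (log2 1.62, 1.52 to 1.71) and 3.86-fold in KO (log2 1.95, 1.86 to 2.04). It was past 2-fold under every alternative, at log2 1.59 to 1.95 in WT and 1.76 to 2.31 in KO. Kupffer cells with a UMI made up 87.6% and 83.3%, and other macrophages 48.3% and 41.8%, against 8.50% and 7.96% of B cells. At 1000 UMIs per cell the shares were 39.0% and 37.3% of Kupffer cells, 11.8% and 8.38% of other macrophages, and 2.17% and 1.68% of B cells. Neutrophils, a shallow class with a median of 2326 UMIs in WT and 2852 in KO, had thinned shares of 9.71% (7.89 to 11.8) and 8.33% (6.48 to 10.5), above the B-cell shares.

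**Figure D1:**
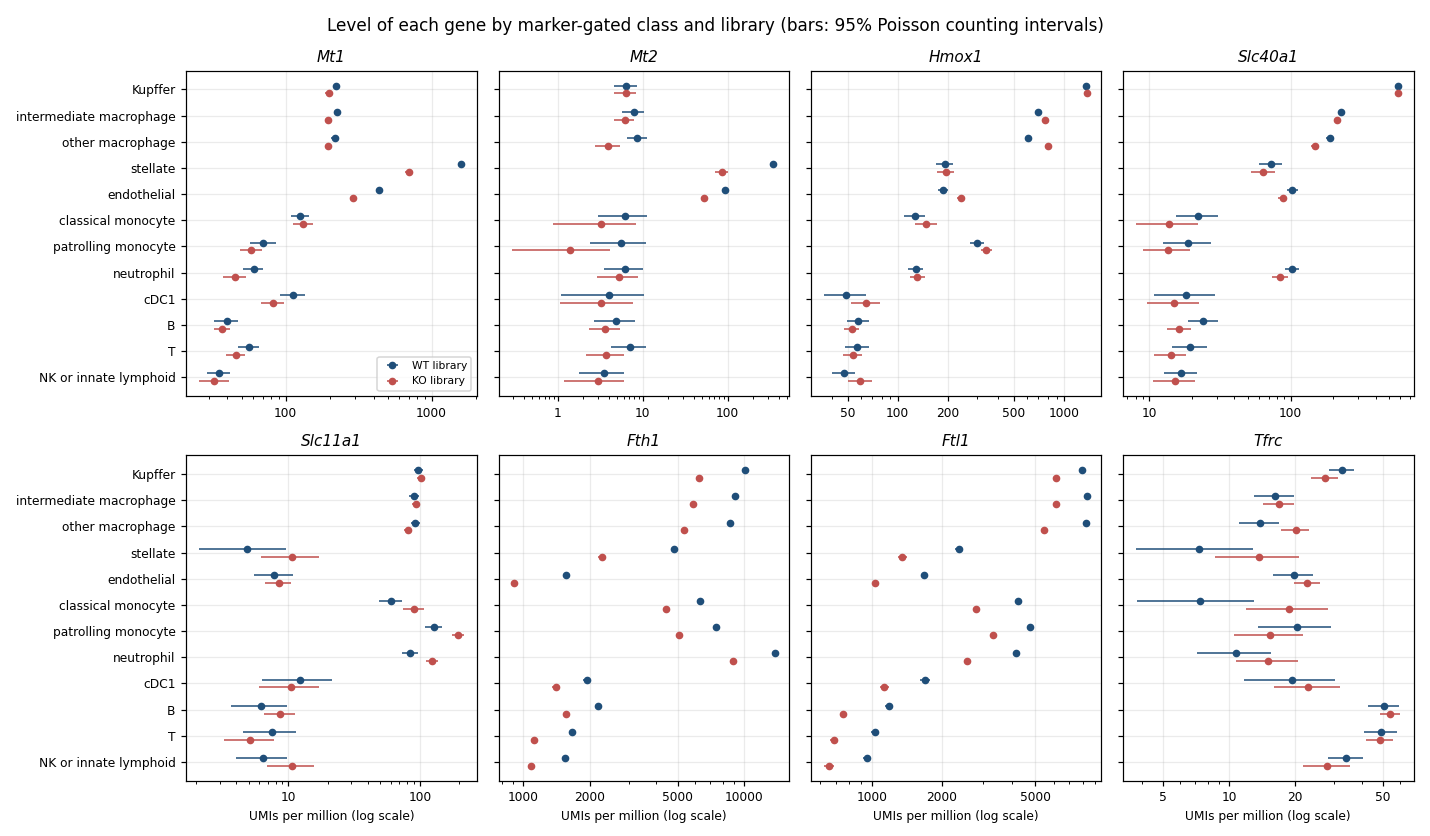
Level of each of the 8 genes in CPM (log axis) in 12 marker-gated classes, WT library in blue and KO library in red, with 95% Poisson counting intervals. Hmox1 and Slc40a1 are highest in Kupffer cells, Mt1 and Mt2 in stellate cells, Fth1 in neutrophils and Tfrc in B and T cells, and both ferritin chains lie lower in the KO library in all 12 classes.

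Among macrophage-gated cells, Slc40a1 and Hmox1 also went with Clec4f, the Kupffer cell lectin, taken as a graded measure. In WT, cells with no Clec4f UMI had 204 CPM of Slc40a1, cells with 1 had 280 CPM, cells with 2 had 540 CPM and cells with more than 10 had 772 CPM. The KO values were 179, 209, 412 and 799 CPM. Hmox1 went from 635 to 1594 CPM over the same range in WT and from 777 to 1749 CPM in KO. Cells with 1 Clec4f UMI, some of them gated as Kupffer cells, had 776 CPM of Hmox1 in WT and 827 CPM in KO. For both genes they lay nearer to cells with none than to the top bin. Cells in the top bin were also the deepest, with a median of 15316 UMIs in WT and 17017 in KO against 9937 and 12068 in cells with none. Mt1 was nearly level, at 222 and 216 CPM in the lowest and highest WT bins and 195 and 197 CPM in the KO bins.

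**Figure D2:**
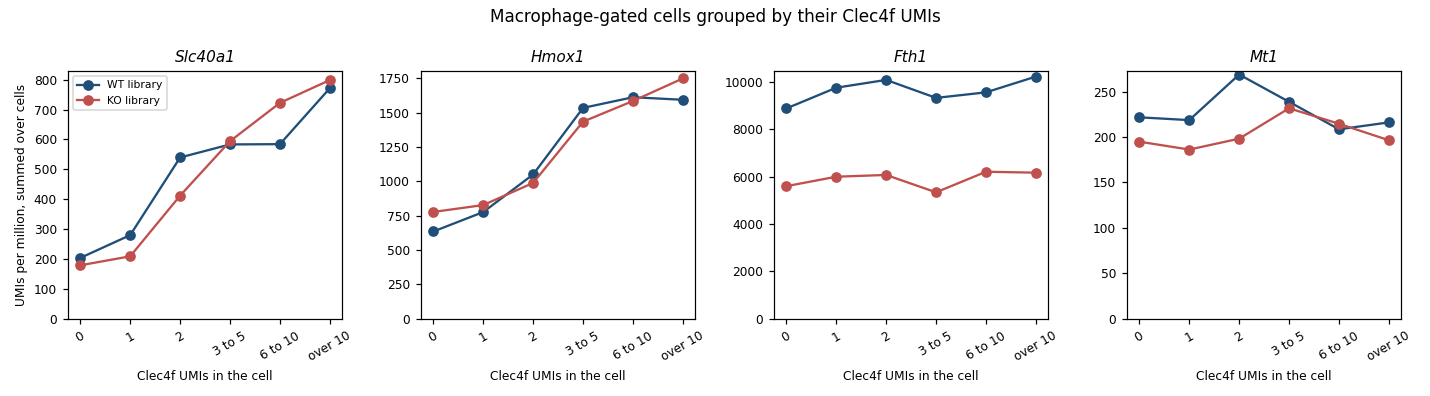
Summed level of Slc40a1, Hmox1, Fth1 and Mt1 in CPM (linear axes from 0) over macrophage-gated cells grouped by the number of Clec4f UMIs in the cell, WT in blue and KO in red. Slc40a1 climbs from 204 to 772 CPM in WT and from 179 to 799 CPM in KO, while Mt1 and Fth1 show no such climb and Fth1 is lower in KO in every bin.

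Hmox1 and Slc40a1 went together from cell to cell in Kupffer cells. With each cell thinned to 5000 UMIs, Spearman's rho was 0.47 over 467 WT cells and 0.38 over 431 KO cells. It was 0.18 and 0.21 in other macrophages (531 and 687 cells), where Slc40a1 is sparse. The spread was wide: the middle 50% of WT Kupffer cells had between 1 and 8 Hmox1 UMIs, and the richest cell had 74. In KO the middle 50% lay between 1 and 9, and the richest cell had 49. These correlations describe cells of 1 library each and are not replicated.

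Tfrc (ENSMUSG00000022797, chr16:32608920-32632794, forward strand) encodes the receptor for transferrin-bound iron and was a sparse gene here. B cells had 50.4 CPM (42.6 to 59.3) in WT and 54.0 CPM (48.6 to 59.96) in KO, and T cells 48.8 and 48.3 CPM, with overlapping intervals. Kupffer cells had 32.5 CPM (28.3 to 37.1) and 27.2 CPM (23.5 to 31.3), other macrophages 13.8 CPM (11.1 to 16.9) and 20.04 CPM (17.3 to 23.2), and stellate cells 7.33 CPM (12 UMIs) and 13.7 CPM (22 UMIs). Kupffer cells were 2.35-fold above other macrophages in WT (log2 1.23, 0.88 to 1.61) and 1.36-fold in KO (log2 0.44, 0.14 to 0.74). With cells thinned to 5000 UMIs before gating the KO ratio was 1.45 on the log2 scale, and with classes taken from clusters it was 1.39. At 1000 UMIs per cell 3.13% of WT Kupffer cells and 5.15% of WT B cells had a UMI.

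Slc11a1 (ENSMUSG00000026177, chr1:74375195-74386062, forward strand), which moves metal ions out of phagosomes and is known in resistance to intracellular pathogens, was highest in monocytes, macrophages and neutrophils. Kupffer cells had 97.3 CPM (89.9985 to 105) in WT and 102 CPM (94.5 to 109) in KO, and other macrophages 92.3 CPM (85.1 to 99.96) and 80.8 CPM (75.1 to 86.9). Patrolling monocytes were highest at 128 CPM (109.998 to 148) and 195 CPM (177 to 215), and neutrophils had 84.1 CPM (73.4 to 96.0) and 124 CPM (111 to 138). Stellate, endothelial, lymphocyte and cDC1 classes lay between 4.89 and 12.2 CPM, about the B-cell level of 6.22 and 8.65 CPM. In WT the macrophage and neutrophil intervals overlapped. In KO neutrophils lay above Kupffer cells without overlap.

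Fth1 (ENSMUSG00000024661, chr19:9980598-9985098, forward strand), the ferritin chain that oxidises iron, was highest in neutrophils at 13728.5 CPM in WT and 8893 CPM in KO. Kupffer cells followed at 10053 CPM (9977 to 10130) and 6219.6 CPM (6162 to 6277), then intermediate macrophages at 9060.2 and 5839.6 CPM and other macrophages at 8648 and 5319.6 CPM. Stellate cells had 4809.6 CPM (4704 to 4917) and 2262 CPM (2189 to 2337), and endothelial cells 1568 and 908 CPM. Kupffer cells were 1.16-fold and 1.17-fold above other macrophages in WT and KO. With classes from clusters that difference turned round in KO, to a log2 ratio of -0.25, and shrank to 0.03 in WT.

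Ftl1 (ENSMUSG00000050708, chr7:45457944-45459884, reverse strand), the chain that helps to build the iron core, stood at 7917 CPM (7850 to 7985) in WT Kupffer cells and 6153 CPM (6096 to 6211) in KO. Other macrophages had 8268 and 5439 CPM, and stellate cells 2357 and 1353 CPM. The Kupffer to other macrophage log2 ratio was -0.06 in WT and 0.18 in KO, and the KO value was -0.015 with cells thinned to 5000 UMIs and -0.24 with classes from clusters. No direction is given for Ftl1 between these classes. The ferritin pseudogene Ftl1-ps1 was counted apart, at 69.6 and 73.3 CPM in Kupffer cells, and reads of ferritin copies could have been split between them. Ftl1 made up 44.1% of ferritin UMIs in WT Kupffer cells and 49.7% in KO, 32.9% and 37.4% in stellate cells, and 23.3% and 22.3% in neutrophils. Capture may differ between genes, so only the comparison of that share between classes is made.

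From cell to cell the 2 ferritin chains went together in each class examined. At 5000 UMIs per cell Spearman's rho was 0.50 and 0.50 in Kupffer cells, 0.51 and 0.40 in other macrophages, and 0.50 and 0.59 in stellate cells (WT and KO). Every thinned cell of these classes had a UMI of each chain. A WT Kupffer cell had a median of 45 Fth1 UMIs and a KO cell 26, and the middle 50% of cells lay between 31 and 61.5 in WT and between 18 and 36 in KO.

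Mt1 (ENSMUSG00000031765, chr8:94179082-94180327, forward strand) was highest in stellate cells. It stood there at 1591 CPM (1530.5 to 1653) in WT and 698 CPM (657 to 739.7) in KO. Endothelial cells followed at 437 CPM (419 to 457) and 287 CPM (276 to 299). Kupffer cells had 222 CPM (211 to 234) and 198 CPM (187 to 208), and other macrophages 217 and 194 CPM, with overlapping intervals. B cells had 39.4 and 36.6 CPM. At 1000 UMIs per cell Mt1 was seen in 64.7% of WT and 41.0% of KO stellate cells, 21.1% and 16.8% of Kupffer cells, and 3.79% and 3.83% of B cells.

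Mt2 (ENSMUSG00000031762, chr8:94172664-94173568, forward strand) was also highest in stellate cells, with endothelial cells next. Stellate cells had 340 CPM (312 to 369, 556 UMIs) in WT and 85.4 CPM (71.7 to 101, 137 UMIs) in KO, and endothelial cells 93.7 and 53.1 CPM. Kupffer cells had 6.44 CPM (4.66 to 8.67) and 6.35 CPM (4.65 to 8.47), which overlapped B cells at 4.84 CPM (2.64 to 8.11) and 3.64 CPM (2.33 to 5.42). After thinning to 1000 UMIs, 0.735% of WT Kupffer cells and 0.407% of WT B cells had a UMI. Macrophage Mt2 is read as background, and no direction between macrophage classes is taken from it. Mt2 overlaps the gene Gm45774 on the opposite strand, and whether counting used strand was not given in the sources used here.

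Mt2 took its largest share of metallothionein UMIs in stellate and endothelial cells. It was 17.6% (16.3 to 19.0) in WT stellate cells and 17.6% (16.2 to 19.2) in WT endothelial cells, and 2.82% (2.05 to 3.77) in WT Kupffer cells. The KO shares were 10.9% (9.24 to 12.8), 15.6% (14.3 to 16.9) and 3.11% (2.29 to 4.13). B cells, at 10.9% (6.11 to 17.7) and 9.06% (5.89 to 13.2), rested on 14 and 24 Mt2 UMIs. In KO the stellate interval overlapped that of B cells and that of neutrophils (10.4%, 5.83 to 16.9, 14 Mt2 UMIs). Outside stellate and endothelial cells Mt2 was near the B-cell level, and no difference is read from the share there.

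**Figure D3:**
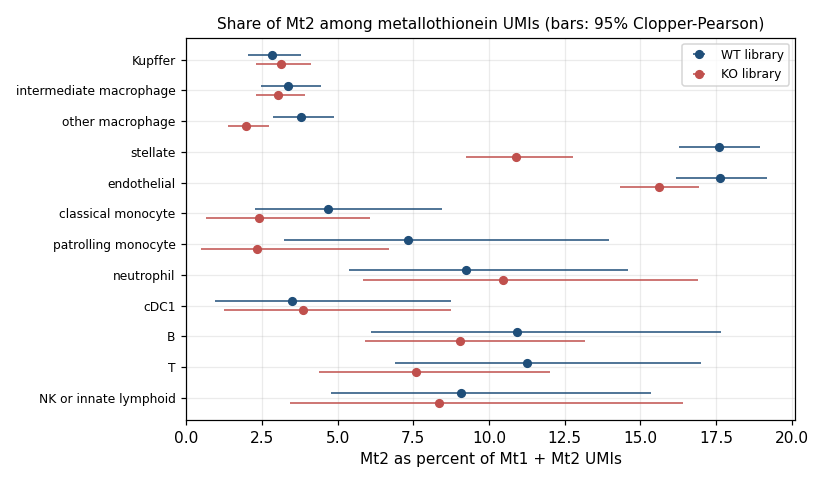
Mt2 as a percent of Mt1 plus Mt2 UMIs in 12 classes (linear axis from 0), WT in blue and KO in red, with 95% Clopper-Pearson intervals. Stellate and endothelial cells reach 17.6% in WT, Kupffer cells stay at 2.82% and 3.11%, and the KO interval lies below the WT interval in stellate cells.

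Counted over the 8 genes, 3 (Slc40a1, Tfrc and Hmox1) were more than 2-fold higher in Kupffer cells than in other macrophages in WT and 0 were lower. Among 11965 genes with at least 20 UMIs over both sums, 2.78% were that much higher and 2.39% that much lower. In KO 1 gene (Slc40a1) was higher and 0 were lower, beside 3.0% and 2.52% of 13008 genes. The median log2 ratio was 0.15 in WT and 0.39 in KO over the 8 genes, and 0.02 in both libraries over all genes. The rule for choosing the 8 genes used these values, so nothing is read from the counts.

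Against stellate cells, Kupffer cells were more than 2-fold higher for 6 genes in WT and lower for Mt1 and Mt2. Of 11884 genes 15.5% were that much higher and 27.2% lower. In KO 5 were higher and the same 2 were lower, beside 14.3% and 29.2% of 12484 genes. Mt1 was 7.16-fold higher in stellate cells in WT and 3.53-fold in KO, and Hmox1 was 7.02-fold higher in Kupffer cells in both. No fold is given for Mt2, which was at the B-cell level in Kupffer cells, or for Slc11a1, which was at that level in stellate cells. Tfrc in KO fell short at 1.91-fold. The median gene was lower in Kupffer cells than in stellate cells by a log2 ratio of -0.28 in WT and -0.32 in KO, and relative to that median Tfrc in KO stood at 1.25.

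Between the libraries, 0 of the 8 genes differed by more than 2-fold in Kupffer cells, beside 7.31% of 12328 genes. Hmox1 (log2 ratio of KO over WT 0.02, -0.02 to 0.06), Slc40a1 (-0.02, -0.08 to 0.04) and Slc11a1 (0.06, -0.09 to 0.22) were near level there. Their sign is not fixed: over the alternatives Hmox1 lay between -0.10 and 0.11 and Slc40a1 between -0.13 and 0.26. Kupffer Fth1 was lower in KO by a log2 ratio of -0.69 and Ftl1 by -0.36. The median log2 ratio over all genes was 0.11 in Kupffer cells, 0.12 in other macrophages and 0.17 in stellate cells, and relative to it the Kupffer values of Hmox1 and Slc40a1 were -0.09 and -0.13.

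In other macrophages Mt2 alone passed 2-fold, lower in KO at background level (log2 -1.11, 56 and 36 UMIs), beside 1.46% of 12699 genes lower and 6.76% higher. Hmox1 was higher in KO other macrophages (log2 0.40, 0.34 to 0.45, and 0.27 relative to the median gene). Stress RNA was higher in the same KO cells, at 23121 CPM against 15159 CPM, and in KO Kupffer cells, at 19172 CPM against 11800.4 CPM, and its part in the Hmox1 value was not tested. Slc40a1 was lower in KO other macrophages (log2 -0.35, -0.47 to -0.24), but with classes from clusters it was higher (log2 0.21). Tfrc was higher in KO by log2 0.54, but -0.0025 with cells thinned to 5000 UMIs.

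In stellate cells both metallothioneins and both ferritin chains were lower in KO. Mt1 was lower in KO by a log2 ratio of -1.19 (-1.29 to -1.09), Mt2 by -1.98 (-2.27 to -1.72), Fth1 by -1.09 (-1.15 to -1.03) and Ftl1 by -0.80 (-0.88 to -0.72). Relative to the median gene the values were -1.36, -2.15, -1.26 and -0.97. Thus 3 of 8 genes were more than 2-fold lower, beside 2.34% of 10593 genes. Slc11a1, with 8 and 17 UMIs, was past 2-fold higher, beside 7.66% of genes, but stood at 0.86 relative to the median gene. Over the 12 alternatives Mt1 lay between -1.36 and -1.08, Mt2 between -2.15 and -1.65 and Fth1 between -1.26 and -0.91. Hmox1 (0.02) and Slc40a1 (-0.18) had intervals that held 0.

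The stellate gap was spread over cells. At 5000 UMIs per cell the median WT stellate cell had 7 Mt1 UMIs and the median KO cell 2, and the middle 50% lay between 3 and 11 in WT and between 1 and 4 in KO, over 119 and 111 cells. Median Fth1 UMIs were 22 and 9, with a middle 50% of 14 to 36 in WT and 5 to 14.5 in KO. Mt1 and Mt2 went together among these cells, with a Spearman's rho of 0.37 in WT and 0.33 in KO. The 5 richest cells held 25.7% of the WT and 24.8% of the KO Mt2 UMIs of the class. RNA of other cells differed between the same sums: hepatocyte RNA was 116 CPM in WT and 399 CPM in KO, and red cell RNA was 499.6 and 143 CPM. Of macrophage genes, C1qa and C1qc together were nearly level, at 384 and 378 CPM. The Kupffer markers were lower in KO, at 55.6 and 33.7 CPM, and the macrophage marker Mertk was higher, at 104 and 161 CPM. Stellate markers themselves summed to 16105 CPM in WT and 10941 CPM in KO, mainly through Dcn at 11055 and 5754.6 CPM and Colec11 at 1174 and 741 CPM. Of the other markers, Lrat was lower in KO too (495 and 440 CPM). Col3a1 (1615 and 1952 CPM) and Reln (1536 and 1818 CPM) were higher in KO and Pdgfrb was near level (229.6 and 236 CPM). The nuclear RNA Malat1, named after its values were seen, stood at 14207 CPM in WT and 22553 CPM in KO stellate cells. That ratio of 1.59 was the highest of the 12 classes. The ribosomal protein share was 11.4% in WT and 6.53% in KO, and that ratio of 0.571 was the lowest of the 12. The part of these values and of the other-cell RNA in the result was not tested.

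Endothelial cells had the same signs at smaller size, with Mt1 lower in KO by -0.61 (-0.69 to -0.52) and Mt2 by -0.82 (-1.01 to -0.63), and 0 of 8 genes past 2-fold beside 5.61% of 13147 genes. Over the 12 classes the Mt1 interval lay below 0 in 7 and above 0 in 0. The Hmox1 interval lay above 0 in 4 and held 0 in 8. The 4 were other macrophages, endothelial cells (0.35, 0.24 to 0.47), patrolling monocytes (0.19, 0.01 to 0.36) and intermediate macrophages (0.14, 0.09 to 0.20). Relative to the median gene, Hmox1 in endothelial cells, patrolling monocytes and intermediate macrophages stood at 0.38, 0.12 and 0.016. Slc11a1 was higher in KO in patrolling monocytes (log2 0.61, 0.36 to 0.87), neutrophils (0.56, 0.31 to 0.81) and classical monocytes (0.57, 0.17 to 0.98), and lower in other macrophages (-0.19, -0.35 to -0.03). Whether these classes differ in that ratio was not tested. In classical monocytes Tfrc was past 2-fold higher in KO (log2 1.29, 12 and 23 UMIs) and 0 members were lower, beside 5.1% of 8464 genes higher and 1.28% lower. In the other classes no member with at least 20 UMIs over both sums passed 2-fold. That left out Mt2 in classical and patrolling monocytes, cDC1 and NK and innate lymphoid cells, and in patrolling monocytes its 8 and 3 UMIs gave a log2 ratio of -1.76. In these classes the share of all genes past it was 7.55% in intermediate macrophages, 5.97% in patrolling monocytes, 10.9% in neutrophils, 7.18% in cDC1, 5.28% in B cells, 6.11% in T cells and 5.36% in NK and innate lymphoid cells.

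The ferritin chains were lower in KO in 12 of 12 classes, each with an interval below 0. The log2 ratio of Fth1 lay between -1.09 in stellate cells and -0.47 in cDC1 with a median of -0.60, and that of Ftl1 between -0.80 in stellate cells and -0.36 in Kupffer cells with a median of -0.59. Relative to the median gene both were still below 0 in 12 of 12. This was not particular to ferritin: Mt1, Mt2 and Slc40a1 were also below 0 in 12 of 12 on that scale. Before centring, their intervals lay below 0 in 7, 3 and 5 classes and above 0 in 0. The ribosomal protein share was lower in KO in the same 12 classes, at 0.571 to 0.807 times the WT share. It was 10.4% and 8.04% of UMIs in Kupffer cells and 11.4% and 6.53% in stellate cells. All these classes come from the same pair of libraries, so 12 classes are not 12 replicates. The part of the library in the ferritin, metallothionein and Slc40a1 values was not tested.

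**Figure D4:**
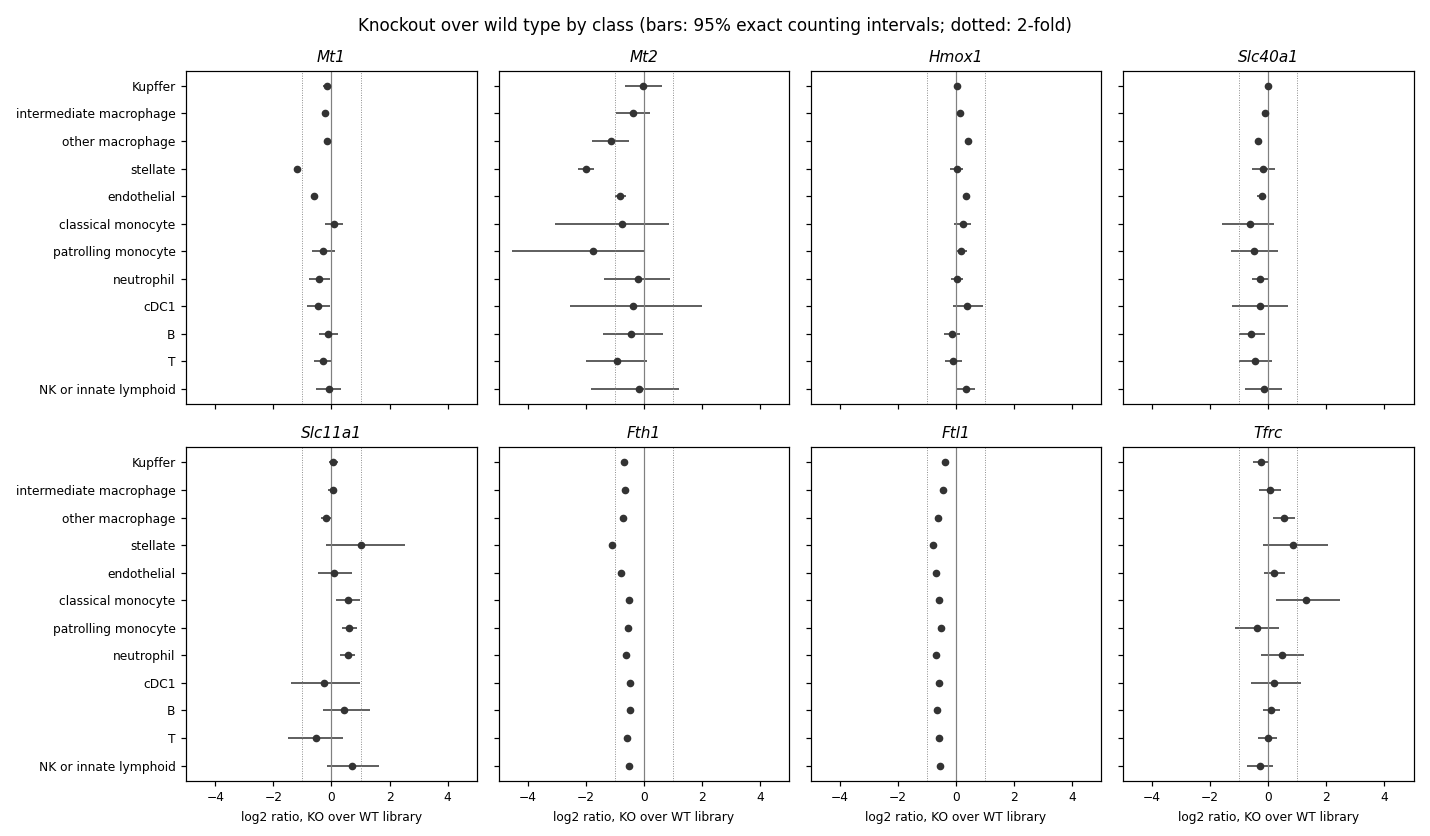
Log2 ratio of the KO over the WT library for each gene in 12 classes, with 95% exact counting intervals and dotted lines at 2-fold. Fth1 and Ftl1 lie below 0 in every class, Mt1 and Mt2 are furthest below 0 in stellate cells at -1.19 and -1.98, and Hmox1 and Slc40a1 lie at 0.02 and -0.02 in Kupffer cells.

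Other genes of iron and metal handling were followed as lists. Between Kupffer cells and other macrophages, 0 of 10 measured genes of iron uptake and transport passed 2-fold in either library, 0 of 7 of the zinc and metal response and 0 of 9 targets of NRF2, the transcription factor that also induces Hmox1 and the ferritins. Of all genes 2.78% in WT and 3.0% in KO were past 2-fold higher and 2.39% and 2.52% lower, so a count of 0 in lists of this size is near the background. The median log2 ratio in WT and KO was 0.03 and -0.01 for uptake and transport, 0.28 and 0.19 for the metal response, 0.34 and 0.42 for NRF2 targets, 0.28 and 0.47 for heme handling and 0.02 and 0.06 for regulation and storage, beside 0.02 in both for all genes. Of 12 heme handling genes 1 was higher, Cd163, the scavenger receptor for haemoglobin bound to haptoglobin, at 43.9 CPM in Kupffer cells and 3.51 CPM in other macrophages in WT (log2 3.59) and at 14.9 and 0.980 CPM in KO (log2 3.79). Of 15 genes of iron regulation and storage Ncoa4, the receptor that delivers ferritin to lysosomes, was higher in both libraries, at 181 and 82.1 CPM in WT (log2 1.14) and 128 and 52.2 CPM in KO (log2 1.30). Spic, a transcription factor of iron-recycling macrophages, named after its values were seen, was at log2 0.78 in WT and 1.24 in KO. Bmp2 was past 2-fold lower in WT, at log2 -1.03, and also named after its values were seen.

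Between the libraries, 0 of 10 uptake and transport genes and 0 of 9 NRF2 targets passed 2-fold in Kupffer cells, and their median log2 ratios were -0.0022 and -0.19 beside 0.11 for all genes. Of all genes 7.31% were past 2-fold in either direction in the same comparison. The medians were -0.19 for heme handling, 0.25 for regulation and storage and 0.0065 for the zinc and metal response. Cd163 was lower in KO, at 43.9 CPM in WT and 14.9 CPM in KO (log2 -1.55, -1.89 to -1.23). Slc39a1, a zinc importer, was lower too, at 104 and 45.0 CPM (log2 -1.21), as 1 of 7 zinc and metal response genes. Neither was particular to Kupffer cells. In other macrophages Cd163 was at log2 -1.75 (23 and 9 UMIs) and Slc39a1 at -1.42, and Slc39a1 was at -0.88 in stellate cells. Of 15 regulation and storage genes 3 were higher: Hamp (log2 1.55), the hepatocyte hormone hepcidin that removes ferroportin from the membrane, Bmp6 (1.19) and Bmp2 (1.11), which are growth factors that induce hepcidin. Hpx (1.74), the heme carrier hemopexin, was the 1 higher heme gene. In other macrophages the same KO over WT log2 ratios were 1.07 for Hamp, 1.27 for Bmp6, 0.49 for Bmp2 and 1.63 for Hpx. Bmp6 rested on 20 UMIs in WT Kupffer cells and 51 in KO. Hpx and Hamp had 21 UMIs each in WT Kupffer cells and 79 and 69 in KO, and hepatocyte RNA was 112 and 277 CPM in the same sums. Its part in these values was not tested.

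In stellate cells 0 of 10 uptake genes, 0 of 6 zinc genes and 0 of 9 NRF2 targets passed 2-fold between the libraries, beside 7.66% of all genes higher and 2.34% lower, so a count of 0 in lists of this size is near the background too. Hamp and Hpx were past it there as well, at 1.20 and 1.29. Id1, a target of bone morphogenetic protein signalling, was 191 CPM in WT and 88.5 CPM in KO (log2 -1.10, -1.40 to -0.82), and was named after its values were seen.

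Likeness of pattern was measured as Pearson's r of log2(CPM + 10) over the 24 class and library points, among 6855 genes of at least 50 CPM in at least 1 point. The genes most like Mt2 were Clca3a1, Gm14964 and Gm13889, each at 0.98. Outside stellate and endothelial cells Mt2 was near the B-cell level, so its r rests mainly on those classes. Clca3a1 stood at 279.7 CPM in WT and 158 CPM in KO stellate cells and at 3.89 and 1.93 CPM in Kupffer cells. Those most like Slc40a1 were Fam219a, Dmpk and Il18bp, each at 0.92, and Il18bp, the binding protein of interleukin 18, had 298 and 247 CPM in Kupffer cells and 138 and 90.6 CPM in other macrophages. Those most like Hmox1 were Ctsb (0.97), Lipa (0.96) and Lgmn (0.95), which encode lysosomal enzymes. The 24 points share 2 libraries and differ in depth.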

How the data were processed

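Droplet single-cell RNA libraries (Chromium 3′ v3, per the labels' protocols) of liver non-parenchymal cells, 1 WT and 1 KO, were analysed from the raw UMI counts deposited by the authors. The file headers name Cell Ranger 7.0.1, whereas the submitters' processing notes name Cell Ranger 3.1.0, Seurat and mm10. Whether introns were counted, the strand rule and how barcodes were filtered before deposit are not given in the sources used here. Of 32285 gene identifiers, 32158 (99.6%) occur in GENCODE M21, which was used for positions only.

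Barcodes under 200 genes or above 20% mitochondrial UMIs were dropped (413 WT and 149 KO). Scrublet in scanpy 1.11.5 scored doublets. Its automatic threshold marked 7 WT and 854 KO cells, so the highest-scoring 0.8% per 1000 cells were removed instead (1034 and 1295). For each class in each library the UMIs of its cells were added up and scaled to 1000000 (CPM). Log2 ratios had 1 count added to each sum, and genes with at least 20 UMIs over both sums entered the counts past 2-fold. CPM carry exact Poisson intervals, shares Clopper-Pearson intervals and ratios exact conditional intervals, all at 95%. The gates left 4317 WT and 4645 KO cells without a class. For shares of cells, each cell was thinned to 1000 UMIs, and for values per cell to 5000.

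The members, markers and lists (iron uptake and transport, heme handling, iron regulation and storage, zinc and metal response, NRF2 targets, and RNA of hepatocytes, red cells, neutrophils, and dissociation and heat stress) were chosen with earlier results of these data known. Genes outside the members were named when a listed gene passed 2-fold between the libraries in Kupffer cells, or between Kupffer cells and other macrophages in both libraries, or when they were among the 3 most like Mt2, Slc40a1 or Hmox1. The ratio intervals were tested on class sums simulated under the Poisson model, which leaves out spread between cells. Alternatives covered cell filter, doublets, gates, depth, weighting, scaling, rich cells, low counts and clusters (leidenalg 0.10.2).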

Additional observations from a re-analysis of the deposited data

How the results depend on the processing

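With 1 library per genotype, no replicate could be left out. No paired analysis was possible because each genotype has 1 library. The 7 counts of members past 2-fold were recomputed under 12 alternatives. The low-count alternative dropped the minimum of UMIs for a gene to be counted. Every member already met that minimum in these comparisons, so this alternative could not change a count and says nothing about stability. Of 84 values, 77 were within 1.5 times the reported count, those of the low-count alternative by construction. The other 7 were as follows. In other macrophages, KO against WT, the reported count of 1 (Mt2) became 0 with at least 5 of 6 markers, a marker counted from 2 UMIs, cells thinned to 5000 UMIs, the 5 richest cells left out, and classes from clusters. For Kupffer cells against other macrophages in KO, the reported count of 1 became 2 with cells thinned to 5000 UMIs and with classes from clusters, where Tfrc passed 2-fold as well.

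Of 672 member ratios recomputed, 511 stayed within the counting interval of the reported value. These include every ratio under the low-count alternative, which cannot move a ratio. Another 155 moved outside the interval with no reversal of a ratio whose interval left out 0. A change of sign occurred in 35, of which 29 were ratios whose reported interval held 0 (Mt1 and Mt2 between macrophage classes, and Hmox1, Slc40a1, Slc11a1 and Mt2 between the libraries). The other 6 were as follows. With cells thinned, Ftl1 in Kupffer cells against other macrophages in KO was -0.01465, and Tfrc in other macrophages, KO over WT, was -0.002465. With classes from clusters, the KO ratios of Kupffer cells to other macrophages were -0.1429 for Mt2, -0.2535 for Fth1 and -0.2352 for Ftl1, and Slc40a1 in other macrophages, KO over WT, was 0.2076. The cause was not tested. The cluster and the gate named the same cell a Kupffer cell in 390 WT and 261 KO cases, so those classes hold partly different cells. Depth limits Tfrc and Slc11a1 in stellate cells, which rest on 8 to 22 UMIs a library.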
